A study of Canis lupus familiaris with 12 samples.

Results

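Netrins, semaphorins, ephrins and Slits are cues that steer growing axons and also position epithelial, endothelial and migrating cells. Netrins bind the receptors DCC and neogenin and the UNC5 family. Semaphorins bind plexins, and the secreted class 3 semaphorins do so with neuropilins as co-receptors. Ephrins are membrane-bound ligands of the Eph receptor tyrosine kinases and signal between touching cells, and Slits bind Robo receptors. In the developing kidney, Slit and Robo genes help to place the ureteric bud, and basement membranes of tubules and vessels contain netrin 4.

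The genes described here were chosen by symbol, as probe sets annotated with 1 gene whose name starts with SEMA, PLXN, EPHA, EPHB, EFNA, EFNB, SLIT, ROBO or UNC5, or is a netrin, NRP1, NRP2, DCC or NEO1. SLITRK genes were left out. This gave 120 of 42924 probe sets, which measured 69 of 15115 genes. Of these probe sets, 109 had a gene identifier found in RefSeq. The prefix UNC5 also takes in UNC50 and UNC5CL, which are not netrin receptors. Neither passed the test, so the counts of changed genes are the same without them. The rule uses symbols and no values, but it was chosen with earlier results of these data known.

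All samples were MDCK II tet-off cells, 1 established line of dog kidney tubule epithelium that carries a tet-off transgene system and was kept in medium with 10% serum and G418. Both cultures were grown with type I collagen and harvested on day 8. The control grew as a flat sheet (2D, 6 arrays) and the other condition as cysts of many cells (3D, 6 arrays). Each array was hybridised with a pool of 4 RNA samples taken from cells that collagenase had released from the gel. The labels name the arrays biological replicates but leave out how samples were assigned to pools. The p-values therefore cover the spread between pools, not that between single cultures. Everything described here comes from this 1 line.

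Values are log2(intensity + 1) of the deposited array signal. Levels are compared between cultures for a gene and never between genes. A gene with several probe sets was represented by that with the highest mean over the 12 arrays. Median intensity lay between 89.9 and 93.7 on every array. The upper quartile of intensity lay between 320 and 342 on the 2D arrays and between 339 and 368 on the 3D arrays. A background level was set on each array as the 95th percentile of 59 control probe sets of bacterial or artificial origin, and it lay between 5.59 and 5.91. All 8 measured markers of kidney tubule epithelium (among them CDH1, EPCAM, KRT8 and PAX8) were above background on all 12 arrays. Of 7 neuronal markers, SNAP25, SYT1 and NEFM were at or below background on every array and 3 others were above it on all 12. Markers of other cell types were also above background on all 12 arrays for 3 of 8 fibroblast, 4 of 7 leukocyte and 3 of 5 endothelial genes, while COL1A2, CD79A and PECAM1 were at background throughout. Among these 4 lists, CD14 rose by 0.43 and 7 genes fell. What gave the signal of these probe sets was not tested.

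Of the 69 guidance genes, 13 rose in 3D (18.8%) and 15 fell (21.7%), while 41 did not pass (limma, adjusted p under 0.05). Among all genes, 42.7% passed, 19.8% rose and 22.9% fell, so guidance genes were called about as often as genes in general. The median log2 fold change was -0.09 over the members and -0.05 over all genes. Sizes were unequal. Of the 69 genes, 7 were called and rose by at least 0.5 on the log2 scale (10.1%, against 6.12% of all genes). A fall as large was called for 1 gene (1.45%, against 1.63%). These 8 genes were SEMA3C, SEMA4B, EPHB2, PLXND1, EFNB1, EPHA2 and SEMA3F, which rose, and NTN4, which fell. The 2D and 3D arrays did not overlap for 11 raised and 4 lowered genes (15.9% and 5.80% of the 69, against 13.1% and 9.41% of all genes). By probe set, 16 of 120 rose and 20 fell, 13 without 3D replicate 3. Of all probe sets, 38.7% passed, 16.7% raised and 22.0% lowered. The roles below hold few genes each, and their counts stand against the 19.8% raised and 22.9% lowered of all genes. Whether any role differs from genes in general was not tested.

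**Figure D1:**
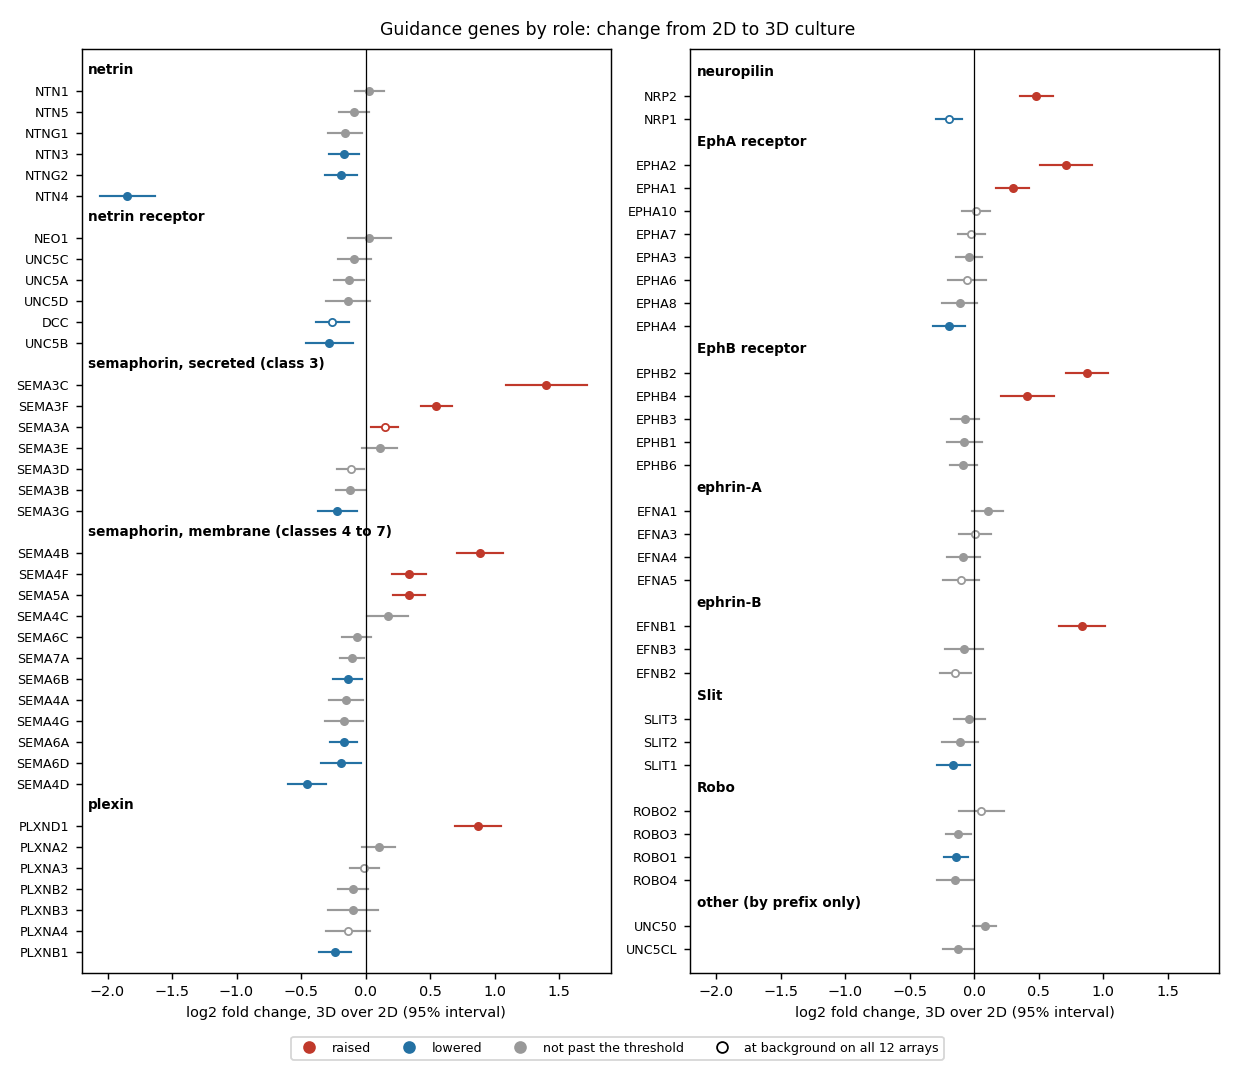
Log2 fold change of each of the 69 guidance genes from 2D to 3D culture (point) with its 95% interval (line), ordered by role. Red genes rose and blue genes fell at an adjusted p under 0.05, grey genes did not pass, and open points were at background on all 12 arrays; NTN4 lies at -1.85 and SEMA3C at 1.40, while most others lie within 0.5 of 0.

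The netrins are secreted or anchored relatives of laminin. Of 6 measured netrin genes, 3 fell and 0 rose (0 also at an unadjusted limma p under 0.05). NTN4, a netrin of basement membranes that binds laminin, ranged from 8.28 to 8.84 over the 2D arrays with a median of 8.53, and from 6.46 to 6.95 over the 3D arrays with a median of 6.72. Every 3D array lay below every 2D array, by more than the width of either group. NTN4 fell by 1.85 (SE 0.10, limma adjusted p = 8.16e-10, n = 6 arrays each), which makes it 3.59-fold lower in 3D. By fold change it ranked 5 among the 15115 genes, counted from the most lowered. A second probe set of NTN4 also fell, by 1.34. In bulk RNA such as this, a smaller share of cells that express a gene and less of its RNA per cell cannot be told apart.

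The other netrins moved little. NTNG2 (netrin G2, anchored to the membrane) fell by 0.19, from 7.53 ± 0.12 to 7.34 ± 0.07 (SD), and NTN3 fell by 0.17, from 7.35 ± 0.08 to 7.18 ± 0.09, and in both the groups overlapped. Only 1 of the 3 probe sets of NTNG2 passed, the others having -0.14 and -0.06. The call of NTN3 ended without 3D replicate 1 or without 3D replicate 3 (limma adjusted p = 0.0528 to 0.0555). NTN1, the classical axon attractant, stood at 5.78 ± 0.07 in 2D and 5.81 ± 0.09 in 3D, close to background (log2 fold change 0.03, 95% interval -0.08 to 0.14). NTN5 (-0.09) and NTNG1 (-0.16, limma adjusted p = 0.0507) did not pass, and NTNG1 was at or below background on every 3D array.

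Of 6 genes for netrin receptors, 2 fell, 0 rose (0 also at an unadjusted limma p under 0.05) and 4 did not pass. Among all genes, 19.8% rose and 22.9% fell. UNC5B, a repulsive netrin receptor, fell by 0.28 (SE 0.09, limma adjusted p = 0.0175). Its 2D arrays ranged from 6.64 to 7.23 with a median of 6.86 and its 3D arrays from 6.53 to 6.82 with a median of 6.57, so the groups overlapped. DCC, the attractive receptor, passed with a change of -0.26 but lay at or below background on all 12 arrays, where a difference is not a measured level of DCC. NEO1 (neogenin, which binds netrins and repulsive guidance molecules) was above background throughout, at 8.29 ± 0.18 and 8.32 ± 0.11 (log2 fold change 0.03, 95% interval -0.14 to 0.19). UNC5A, UNC5C and UNC5D had changes of -0.13, -0.09 and -0.14. The second probe set of UNC5C had 0.14 (limma unadjusted p = 0.0369, adjusted p = 0.0818) and was at background on all 12 arrays.

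Class 3 semaphorins are secreted ligands of neuropilin and plexin complexes. Of 7 genes, 3 rose, 1 fell and 3 did not pass. SEMA3C, which binds both neuropilins, ranged from 7.19 to 7.70 in 2D with a median of 7.46 and from 8.12 to 9.17 in 3D with a median of 8.95. The groups did not overlap, and 3D replicate 2 was the lowest 3D array at 8.12, with the other 5 at or above 8.85. SEMA3C rose by 1.40 (SE 0.15, limma adjusted p = 1.76e-06), a 2.64-fold difference, and by 1.55 without 3D replicate 2. That array also differed from the other 3D arrays in an RNA control ratio described below.

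SEMA3F, a ligand that acts through NRP2, ranged from 7.91 to 8.13 in 2D with a median of 8.00 and from 8.44 to 8.74 in 3D with a median of 8.53. All 3D arrays were higher than all 2D arrays. SEMA3F rose by 0.55 (SE 0.06, limma adjusted p = 1.04e-06). SEMA3G fell by 0.22 with overlapping groups, a call that ended without 3D replicate 1, 3 or 4 (limma adjusted p = 0.0515 to 0.0545). SEMA3A, the ligand known for growth cone collapse, passed with a change of 0.15, but it was at or below background on all 12 arrays and its second probe set had -0.07. Its call ended without 2D replicate 1 or 2 or 3D replicate 1 or 4 (limma adjusted p = 0.0612 to 0.0788). SEMA3B, SEMA3D and SEMA3E had changes of -0.12, -0.12 and 0.11, and SEMA3D was at background throughout.

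Semaphorins of classes 4 to 7 are membrane-bound. Of 12 genes, 3 rose, 4 fell and 5 did not pass. SEMA4B, a transmembrane semaphorin, ranged from 7.76 to 8.12 in 2D with a median of 7.92 and from 8.52 to 9.06 in 3D with a median of 8.84. The groups did not overlap, and SEMA4B rose by 0.89 (SE 0.08, limma adjusted p = 5.60e-07). Its second probe set rose by 0.94. SEMA5A, which carries thrombospondin repeats, rose by 0.34 (SE 0.06, limma adjusted p = 0.000319) and its second probe set by 0.51. SEMA4F rose by 0.34 on 1 probe set, while the other had -0.03, and the mean over both rose by 0.16.

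SEMA4D, a ligand of plexin B1, was the membrane semaphorin with the largest fall. It ranged from 7.06 to 7.31 in 2D with a median of 7.19 and from 6.54 to 6.98 in 3D with a median of 6.68, with no overlap. SEMA4D fell by 0.45 (SE 0.07, limma adjusted p = 7.30e-05). Its 3 probe sets all fell, the others by 0.90 and 0.43. SEMA6A, SEMA6B and SEMA6D fell by 0.17, 0.14 and 0.19 with overlapping groups, and SEMA6D was above background on only 1 array of each group. For each of these genes only 1 of 2 probe sets passed. The call of SEMA6B ended without any 1 of 8 arrays (2D replicates 1, 2, 4 and 6 and 3D replicates 1, 3, 4 and 5; limma adjusted p = 0.0535 to 0.10). That of SEMA6D ended without any 1 of 9 (the same arrays and 3D replicate 6; limma adjusted p = 0.0616 to 0.101). SEMA4A, SEMA4C, SEMA4G, SEMA6C and SEMA7A did not pass, the largest change among them being 0.17 in SEMA4C.

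Plexins transmit the semaphorin signal into the cell. Of 7 genes, 1 rose, 1 fell and 5 did not pass. PLXND1, a receptor of class 3 semaphorins, ranged from 5.90 to 6.25 in 2D with a median of 6.12 and from 6.76 to 7.20 in 3D with a median of 6.93. The 2D arrays lay just above background and the 3D arrays well above them, without overlap. PLXND1 rose by 0.87 (SE 0.08, limma adjusted p = 5.41e-07).

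PLXNB1, the receptor of SEMA4D, ranged from 9.76 to 9.98 in 2D with a median of 9.92 and from 9.53 to 9.74 in 3D with a median of 9.67. It fell by 0.24 (SE 0.06, limma adjusted p = 0.00424), with no overlap. PLXNB2, also of class B, stood at 9.91 ± 0.09 and 9.81 ± 0.10 and did not pass (log2 fold change -0.10, 95% interval -0.21 to 0.02). PLXNA2 (0.10) and PLXNB3 (-0.10) did not pass either, and PLXNA3 and PLXNA4 were at background on all 12 arrays.

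The neuropilins, co-receptors without enzymatic activity of their own, differed in what was measurable. NRP2 ranged from 7.33 to 7.56 in 2D with a median of 7.37 and from 7.73 to 7.99 in 3D with a median of 7.94. The groups did not overlap and NRP2 rose by 0.48 (SE 0.06, limma adjusted p = 1.06e-05). Only 1 of its 3 probe sets rose, the others having 0.03 and -0.12, and the mean over the 3 rose by 0.13 (limma adjusted p = 0.0385). NRP1 was at or below background on all 12 arrays, where it passed with a change of -0.20. Leaving out semaphorin, plexin and neuropilin genes at background on all 12 arrays, SEMA3C, SEMA3F, SEMA4B, SEMA4F, SEMA5A, PLXND1 and NRP2 were called as raised. SEMA3G, SEMA4D, SEMA6A, SEMA6B, SEMA6D and PLXNB1 were called as lowered, and the others did not pass. Whether ligands and receptors changed together was not tested.

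**Figure D2:**
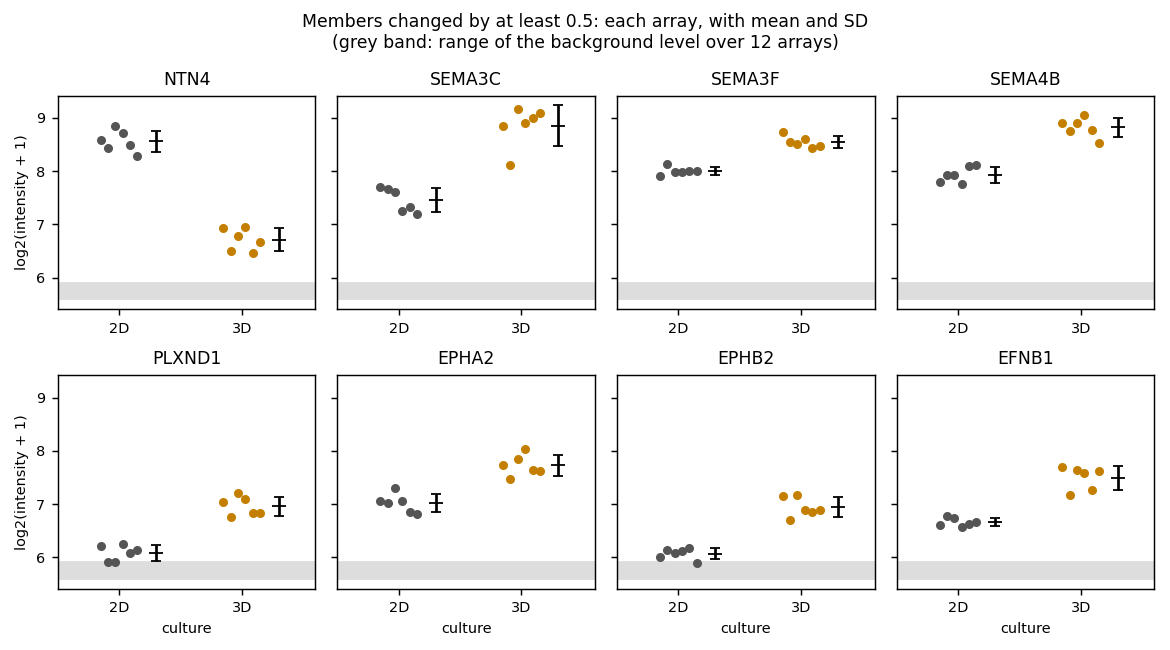
Log2(intensity + 1) on each of the 6 arrays of 2D and 3D culture for the 8 guidance genes changed by at least 0.5, with mean and SD beside the points and the range of the background level in grey. NTN4 falls from between 8.28 and 8.84 to between 6.46 and 6.95, the other 7 rise without overlap, and 1 SEMA3C array in 3D, replicate 2, sits at 8.12 below the other 5.

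Eph receptors of class A are bound by ephrin-A ligands. Of 8 genes, 2 rose, 1 fell and 5 did not pass. EPHA2, a receptor of epithelial cell contacts, ranged from 6.82 to 7.30 in 2D with a median of 7.03 and from 7.46 to 8.04 in 3D with a median of 7.69. The groups did not overlap and EPHA2 rose by 0.71 (SE 0.09, limma adjusted p = 1.96e-05). EPHA1 rose by 0.30 (SE 0.06, limma adjusted p = 0.00110), from 9.78 ± 0.10 to 10.08 ± 0.11, with a small overlap, and by 0.20 as the mean of its 2 probe sets. EPHA4, which binds ephrins of both classes, fell by 0.19. EPHA6, EPHA7 and EPHA10, the last of which lacks kinase activity, were at background on all 12 arrays. EPHA3 (-0.04) and EPHA8 (-0.11) lay at the background level on some arrays.

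EphB receptors are bound by ephrin-B ligands. Of 5 genes, 2 rose, 0 fell (0 also at an unadjusted limma p under 0.05) and 3 did not pass. EPHB2 ranged from 5.90 to 6.17 in 2D with a median of 6.10, on 1 array at background, and from 6.71 to 7.18 in 3D with a median of 6.89. Every 3D array exceeded every 2D array, and EPHB2 rose by 0.88 (SE 0.08, limma adjusted p = 2.15e-07). EPHB4 rose by 0.41 (SE 0.10, limma adjusted p = 0.00333). Its 2D arrays ranged from 5.91 to 6.23 with a median of 6.13 and its 3D arrays from 6.30 to 7.01 with a median of 6.44, with 3D replicate 4 highest. EPHB1, EPHB3 and EPHB6, the last without kinase activity, had changes of -0.08, -0.07 and -0.08.

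None of the 4 measured ephrin-A genes passed, also at an unadjusted limma p under 0.05 (0 raised and 0 lowered). EFNA1, a ligand of EPHA2, stood at 10.83 ± 0.13 in 2D and 10.94 ± 0.04 in 3D (log2 fold change 0.10, 95% interval -0.01 to 0.22, limma adjusted p = 0.15). Its second probe set rose by 0.19 (limma adjusted p = 0.0396), and the mean over both passed with 0.15 (limma adjusted p = 0.0232). EFNA4 had -0.08, and EFNA3 and EFNA5 were at background throughout.

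Of the 3 ephrin-B genes, 1 rose and 0 fell (1 lowered at an unadjusted limma p under 0.05). EFNB1, a transmembrane ligand of EphB receptors, ranged from 6.56 to 6.77 in 2D with a median of 6.64 and from 7.16 to 7.70 in 3D with a median of 7.60. The groups did not overlap and EFNB1 rose by 0.83 (SE 0.08, limma adjusted p = 1.09e-06). EFNB2 was at background on all 12 arrays, and EFNB3 had -0.08.

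Among the Slit and Robo genes the largest change in size was that of SLIT1, at 0.16. Of 3 Slit genes, 1 fell and 0 rose, and of 4 Robo genes, 1 fell and 0 rose (0 raised at an unadjusted limma p under 0.05 in both). SLIT1 ranged from 6.09 to 6.30 in 2D with a median of 6.20 and from 5.90 to 6.24 in 3D with a median of 6.02. It fell by 0.16 (SE 0.06, limma adjusted p = 0.0449) with overlapping groups, a call that ended without any 1 of 9 arrays (2D replicates 1, 2, 5 and 6 and 3D replicates 1, 3, 4, 5 and 6; limma adjusted p = 0.0528 to 0.101).

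ROBO1, a receptor that mediates repulsion by Slits, ranged from 6.15 to 6.30 in 2D with a median of 6.22 and from 6.02 to 6.17 in 3D with a median of 6.08. It fell by 0.14 (SE 0.04, limma adjusted p = 0.0177), and the ranges overlapped at their edges. Only 1 of its 3 probe sets passed. The call ended after quantile normalization (-0.09, limma adjusted p = 0.148) and after the arrays were centred on their medians (-0.12, limma adjusted p = 0.0548). ROBO3 (-0.12, limma adjusted p = 0.0505) and ROBO4, the Robo of endothelium (-0.15), did not pass. ROBO2, a Slit receptor of the developing kidney, was at background on all 12 arrays, and SLIT2 and SLIT3 lay around the background level.

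Many guidance genes lay near background. Of the 69 genes, 46 were above background on all 12 arrays, 13 were at background on all 12 and 10 lay between. Among the 46, 11 rose (23.9%) and 12 fell (26.1%). Of the 11283 genes that met the same condition, 48.1% passed, 24.2% raised and 23.9% lowered. Among the 13, 1 passed as raised and 2 as lowered, against 1.12% and 16.5% of such genes. Of the 14 lowered genes other than NTN4, which fell by 0.14 to 0.45, 11 had a mean level under 7.

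Dim probe sets were lower in 3D across the whole array. The 59 background controls had a median change of -0.05, 52 of them lower in 3D, and the background level fell from 5.76 ± 0.09 to 5.66 ± 0.04 (SD over 6 arrays each, p = 0.013 by exact two-sided permutation). All genes with a mean level of 6 to 7 had a median change of -0.08, and the 23 guidance genes in that range had -0.13. The part of this shift in the small falls was not tested. With quantile normalization, 9 of the 15 lowered genes and all 13 raised genes were still called, and the totals were 15 raised and 13 lowered. The calls lost were those of SEMA6A, SEMA6B, SEMA6D, EPHA4, SLIT1 and ROBO1. With each array centred on its median the totals were 14 raised and 11 lowered, without SEMA6B, SEMA6D, SLIT1 and ROBO1.

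**Figure D3:**
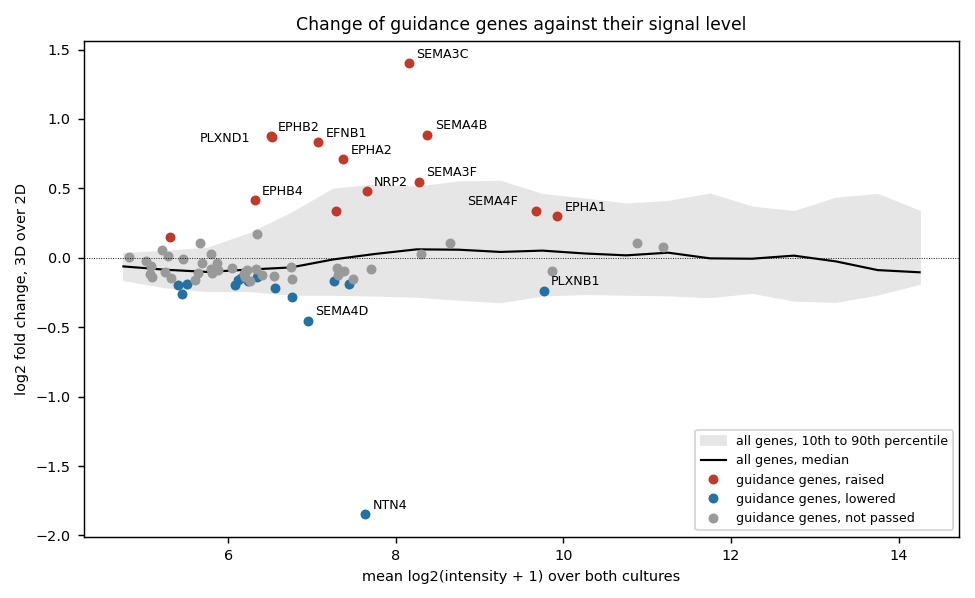
Log2 fold change from 2D to 3D of the 69 guidance genes against their mean log2(intensity + 1) over both cultures, with the median and the 10th to 90th percentile of all genes per 0.5-wide step of level. The line for all genes lies below 0 under a level of 7, where most of the small falls lie, and the 8 genes changed by at least 0.5 lie outside the grey band.

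A control ratio used as a sign of RNA integrity also differed between the cultures. The mean log2 ratio of 5-prime to 3-prime signal over 4 pairs of actin and GAPDH control probe sets stood at -0.91 ± 0.14 over the 2D arrays and -0.54 ± 0.17 over the 3D arrays (SD of 6, p = 0.00866 by exact two-sided permutation). With another 5-prime actin probe set it was -0.85 ± 0.13 and -0.68 ± 0.15 (p = 0.0541, same exact test). When the first of these ratios entered the fit as a covariate, 11 guidance genes rose and 3 fell. NTN4 then had -2.07, PLXND1 0.82, SEMA4B 0.92, EPHB2 0.71 and SEMA3F 0.54. The rise of SEMA3C came to 0.72, of EFNB1 to 0.54 and of EPHA2 to 0.42, all still called. Of the 15 lowered genes only NTN4 and PLXNB1 were still called, the third lowered gene being EFNA4, which had not passed before. The calls of SEMA4D (-0.23, limma adjusted p = 0.0772), NTN3, NTNG2, DCC, UNC5B, SEMA3G, SEMA6A, SEMA6B, SEMA6D, NRP1, EPHA4, SLIT1 and ROBO1 ended. Their sizes moved unequally. ROBO1 then had -0.19 (limma adjusted p = 0.0703) and NTNG2 -0.19 (limma adjusted p = 0.197), while SEMA3G had -0.02 and SEMA6D 0.03. A lost call was therefore not always a lost change. Of the 13 raised genes, EPHB4 (0.44, limma adjusted p = 0.0712) and SEMA3A lost their calls. By the first ratio, 3D replicate 2 lay at -0.88, within the 2D range of -1.09 to -0.75. The other 3D arrays lay between -0.55 and -0.40. Of the genes raised by at least 0.5, SEMA3C, PLXND1, EPHA2, EPHB2 and EFNB1 had their lowest 3D value on that array. SEMA3F and SEMA4B did not. The part of RNA integrity in these results was not tested further.

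All 8 genes changed by at least 0.5 kept their direction and their call under each of 23 alternatives, which included leaving out every array in turn. Of the 13 raised genes 11 did so, the exceptions being SEMA3A and EPHB4. Of the 15 lowered genes 2 did so, NTN4 and PLXNB1. SEMA3C, SEMA3F, PLXND1, EPHA2, EPHB2 and EFNB1 each had 1 probe set, so for them the mean over probe sets repeats the same values. Filters likewise leave the fold change of a gene unchanged. No gene had 1 probe set raised and another lowered, among 35 genes with several. For some of these, such as NTNG2, NRP2 and ROBO1, only 1 probe set passed. Many members, 42 of 69, were represented by a probe set with the suffix _s_at or _x_at, which can bind related transcripts, so their values are uncertain as to the family member. These members include NTN4, SEMA3C, SEMA3F, PLXND1, EPHA2 and EPHB2. For NTN4, the second probe set carries neither suffix and fell by 1.34.

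**Figure D4:**
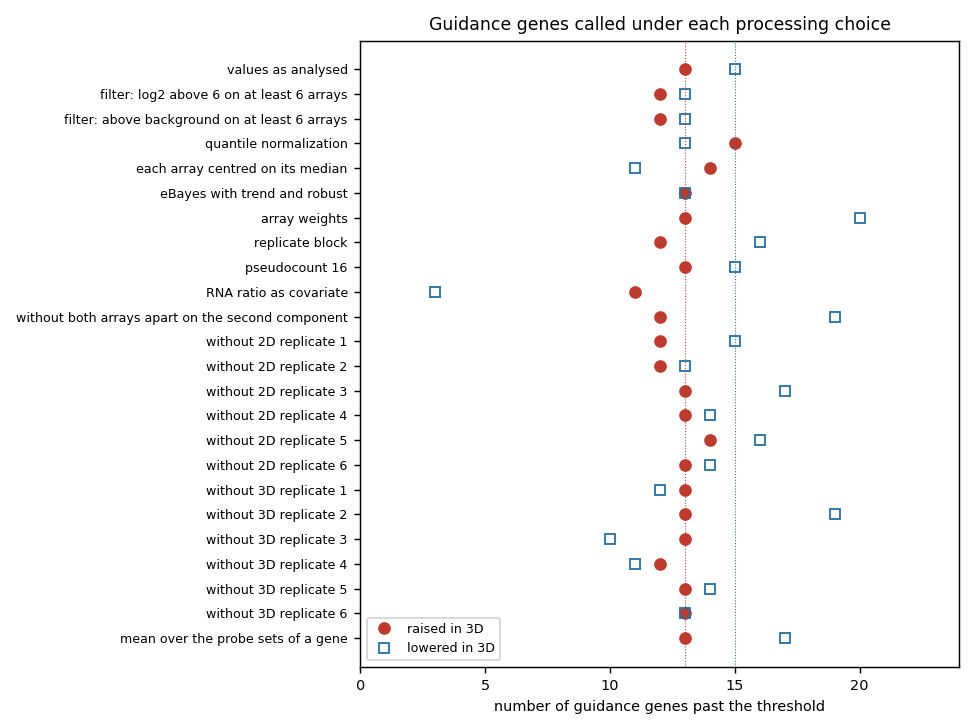
Number of the 69 guidance genes that rose (filled circles) or fell (open squares) at an adjusted p under 0.05 in the values as analysed and under each alternative, with dotted lines at the 13 raised and 15 lowered of the first row. Raised genes number 11 to 15 throughout, and lowered genes 10 to 20 except for 3 with the RNA ratio as a covariate.

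Several members lie next to each other in the dog genome, by the gene order of RefSeq assembly UU_Cfam_GSD_1.0, and in no neighbouring pair did both genes pass. EFNA1, EFNA3 and EFNA4 are adjacent and none passed. SEMA3C, which rose by 1.40, has 5 protein-coding genes between it and SEMA3E (0.11, not passed), which is adjacent to SEMA3A. SEMA3F, which rose, has 3 between it and SEMA3B (-0.12, not passed). EPHB2, which rose, has 3 between it and EPHA8 (-0.11, not passed). ROBO1, which fell by 0.14, is adjacent to ROBO2 (0.05, at background).

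Other genes of these pathways were taken from a list by role, which was also chosen with earlier results of these data known. Of its 81 genes, 73 were measured. Of these, 26 rose, 12 fell and 35 did not pass, with a median log2 fold change of 0.04. Among all genes, 19.8% rose and 22.9% fell. Most partner genes were bright, with 54 of the 73 above background on all 12 arrays, and bright genes rose more often in general. At a mean level of 8 to 10, 33.8% of all genes rose and 20.5% fell, and over 10, 32.4% and 26.9%. Whether partner genes differ from genes of like level was not tested. Among 50 cytoplasmic effectors, which link guidance receptors to the cytoskeleton, 19 rose and 10 fell. RRAS, a small GTPase that plexins inactivate, rose by 1.03 (SE 0.06), the actin-binding ABLIM3 by 0.77, the actin oxidase MICAL2 by 0.73 and the kinase PAK1 by 0.70. FARP1, a guanine nucleotide exchange factor, fell by 0.76 (SE 0.05), the cofilin kinase LIMK2 by 0.42 and the chimaerins CHN2 and CHN1, Rac GTPase-activating proteins, by 0.32 and 0.29. Each of these 8 had no overlap between the cultures (limma adjusted p from 1.39e-09 for RRAS to 0.00134 for CHN2). Of all genes, 13.1% rose and 9.41% fell without overlap.

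Of 17 co-receptors and alternative ligands, 4 rose, 2 fell and 11 did not pass. FLRT2, a ligand of UNC5 receptors, rose by 0.93 (SE 0.09, limma adjusted p = 4.14e-07), from 8.82 ± 0.17 to 9.75 ± 0.17 (SD, n = 6 each). PTK7, a plexin partner, rose by 0.61, the adhesion molecule L1CAM by 0.53 and the integrin subunit ITGB1 by 0.39, while KDR fell by 0.31 and CNTN1 by 0.20. Of 6 enzymes that shed or process guidance proteins, 3 rose and 0 fell (0 also at an unadjusted limma p under 0.05). RHBDL2, a rhomboid protease that cleaves ephrin-B, rose by 1.42 (SE 0.06, limma adjusted p = 5.59e-11), a change close in size to that of SEMA3C. PCSK5 rose by 0.26 and ADAM10, which sheds ephrin-A, by 0.13. In the fit that holds the RNA ratio, 17 of the 73 rose and 3 fell.

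**Figure D5:**
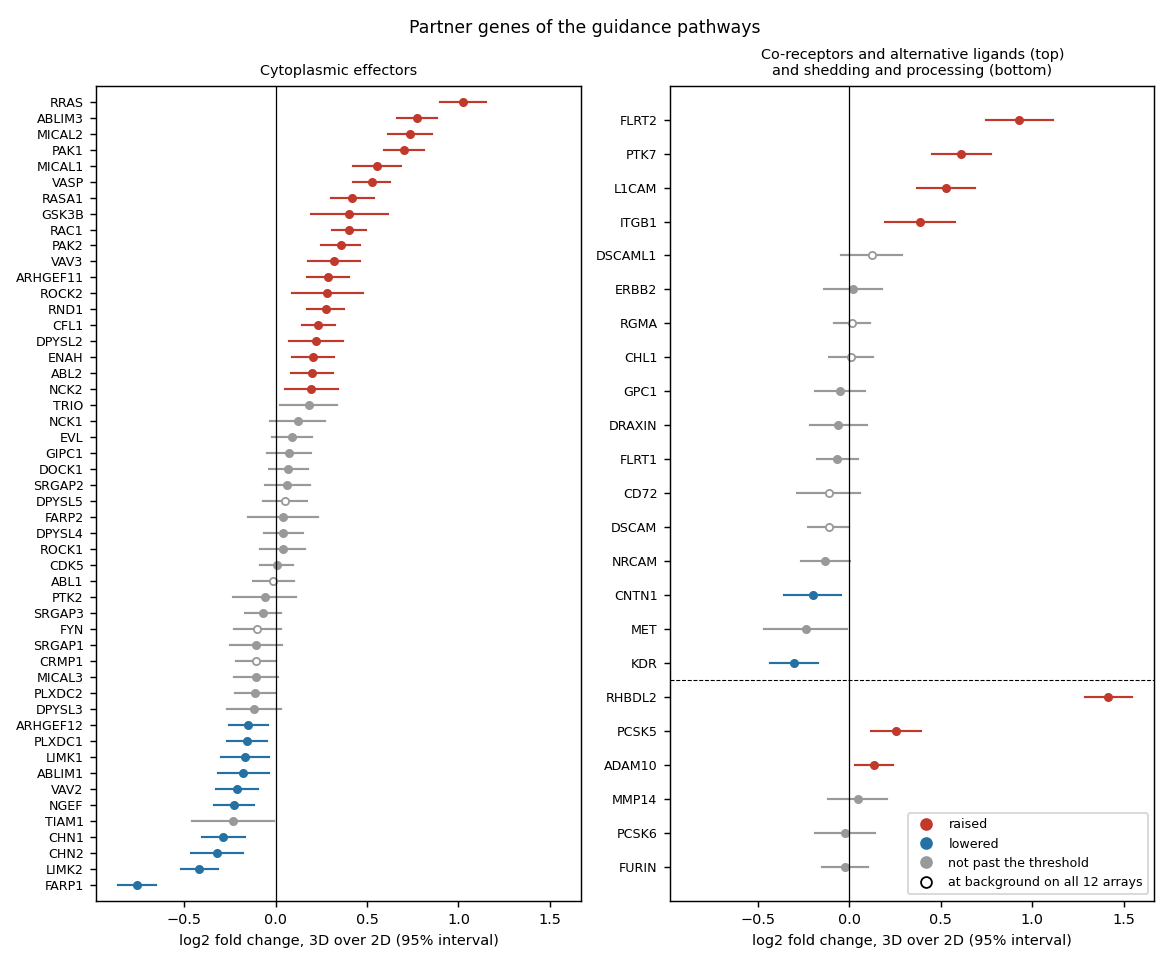
Log2 fold change from 2D to 3D (point) with 95% interval (line) of the 73 measured partner genes, with cytoplasmic effectors on the left and co-receptors, alternative ligands and processing enzymes on the right. Red genes rose and blue genes fell at an adjusted p under 0.05; RHBDL2 is highest at 1.42 and FARP1 lowest at -0.76.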

How the data were processed

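The authors deposited linear intensity values of 43035 probe sets on 12 Affymetrix dog arrays. GCRMA is named without a version in the submitters' processing notes, which say nothing here of later scaling. Depth has no meaning for arrays, and their number limits the precision. No further normalization was applied. The pseudocount of 1 makes the change of dim genes come out too small. After 111 control probe sets were left out, limma 3.58.1 (lmFit, then eBayes; R 4.3.3) was run on 42924, with culture as the only term, a two-sided test and Benjamini-Hochberg adjustment over all of them. Genes were named from the platform annotation: 29254 probe sets named 1 gene, 439 several and 13231 none. Hybridisation spikes were left out of the background controls. Single measures of array quality were compared by exact permutation over 924 assignments. The calculation was run on simulated data with planted changes and independent noise. That run checks the code only, since it holds neither the shift of dim probe sets nor as many changed probe sets. Plots used Python 3.11.15 and matplotlib 3.10.9.

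The members, the partner list and the alternatives were chosen with earlier results of these data known. By the rule for named genes, full values are given for called members changed by at least 0.5, or the called member changed most in a role without one. Other members are named with their change or as at background, and up to 4 partner genes are named per direction and role. The alternatives were filters of a log2 level above 6 or above background on at least 6 arrays, quantile normalization, centring on the median, a robust variance prior that follows the level, a pseudocount of 16, weighted arrays, a block for the replicate number, the mean over probe sets, the RNA ratio as a covariate, and leaving out each array or both that lie farthest out on the second principal component. Counts without UNC50 and UNC5CL were added later.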

Additional observations from a re-analysis of the deposited data

Results flagged for a closer look

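In 10 of the 138 sets of 6 arrays looked at (69 genes in each culture), the highest or lowest array stood apart from the rest by more than Dixon's 95% critical value for 6 values. Chance gives this for about 5% of sets. Among the changed genes, SEMA3C in 3D replicate 2 stood at 8.12 (others 8.85 to 9.17), SEMA6D in 3D replicate 2 at 5.69 (others 5.31 to 5.39) and EPHB4 in 3D replicate 4 at 7.01 (others 6.30 to 6.54). Among genes that did not pass, SEMA4C in 3D replicate 1 stood at 6.12 (others 6.43 to 6.58), and SEMA4C rose by 0.23 without that array (limma adjusted p = 0.00740). ROBO3 in 3D replicate 1 stood at 7.12 (others 7.24 to 7.30), and SLIT3 in 3D replicate 2 at 5.46 (others 5.67 to 5.76). EPHB1 in 2D replicate 6 stood at 6.15 (others 5.75 to 5.79). PLXNA3 in 3D replicate 5 at 5.56 (others 5.42 to 5.45), EFNA3 in 3D replicate 3 at 4.96 (others 4.76 to 4.81) and EFNB2 in 3D replicate 6 at 5.10 (others 5.25 to 5.32) were all at background.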

How the results depend on the processing

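Leaving out 1 array gave 12 to 14 raised and 10 to 19 lowered guidance genes. By probe set it gave 14 to 17 raised and 13 to 25 lowered, the lowest without 3D replicate 3, and for partner genes 23 to 26 raised and 8 to 12 lowered. With the RNA ratio as a covariate 3 guidance genes, 8 of their probe sets and 3 partner genes fell, and 17 partner genes rose. That covariate moves with culture, and the cause of the drop was not tested. SEMA6D then had a log2 fold change of 0.030 in place of a fall (limma adjusted p = 0.876, and 0.00456 to 0.876 over all its alternatives). With centring on the median 7 partner genes fell. Of 41 guidance genes that did not pass, 15 passed without 1 array or another (limma adjusted p = 0.00514 to 0.0499, changes of 0.13 to 0.23 in size). These were NTNG1, SLIT2 and UNC5D without 2D replicate 1, ROBO3 without 2D replicate 2, SEMA3B and ROBO3 without 2D replicate 3, UNC5A without 2D replicate 4, EFNB2, PLXNA2 and SEMA4A without 2D replicate 5, and ROBO4 and SEMA4G without 2D replicate 6. Without 3D replicate 1 they were EPHA8, SEMA4C and SEMA4G, without 3D replicate 2 EFNB2, NTNG1, ROBO3 and SEMA4A, and without 3D replicate 5 SEMA3D and UNC5CL. For genes called under neither setting the sign was not followed. Same-numbered arrays of the 2 cultures correlated by 0.00084 to 0.36 in their deviations from the group means, over 0.1 for 3 of 6 pairs. Of the 2D arrays 4 of 6 correlated best with their own number, a hint of pairing from the data. The numbers were not used as pairs because the labels give them no meaning and not every pair passed 0.1. With the replicate block 12 guidance genes rose and 16 fell, and 15 probe sets rose and 21 fell. SEMA3A and SEMA6B then lost their calls (limma adjusted p = 0.0697 and 0.0691), and SEMA4A and SEMA4G gained them (0.0462 and 0.0382). The filter on levels above 6 left 46 of the 69 genes to test, and that on background left 52. Members at background on all arrays have no measurable change at this signal.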
